A study of Mus musculus with 15 samples.

Results

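Heat shock proteins are molecular chaperones, which bind other proteins while these fold, assemble or are refolded after stress. The 10 genes described here are Hsp90ab1, Hsp90aa1, Hspa8, Hspa5, Hspa9, Hspa4, Hsph1, Hspd1, Hspe1 and Hspb1, taken by gene symbol from the 21662 genes counted in each of 2 RNA-seq experiments in mouse embryonic stem cells (ESC). All 10 were in both count tables and all 10 passed the filter on low counts (a mean of at least 10 reads per library) in every comparison. The choice named Hsp90ab1 as the gene with the most reads in the first experiment, so its rank there is a description.

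The ESC line (159, of mixed 129Sv-C57Bl/6 origin) carries the biotin ligase BirA under the CAG promoter, and all groups share this background. The KO experiment had 9 libraries, from WT (3), Hmga1 KO (2), an Hmga1 add-back (2) and an Hmga2 add-back (2). The KO is a Cas9 frameshift in Hmga1, which encodes an abundant chromatin protein that binds AT-rich DNA, and the add-backs are biotin-tagged Hmga1 or Hmga2 cDNAs under the CAG promoter, inserted at 1 defined locus of the KO cells. The full-deletion experiment had 6 libraries, from WT (3) and from cells whose Hmga1 coding sequence was removed by adding further Cas9 guides (3). Cells grew with serum and LIF on feeders or gelatine, and mutant lines were isolated as clones, so a clone and its genotype cannot be told apart. Cultures were harvested on different days, but no source ties a library to its culture, and p-values measure the spread between libraries. Letters a, b and c of the KO experiment mark batches that shared a library preparation day and a flow cell. In RNA from whole cultures, fewer cells with a transcript and less of it per cell cannot be told apart.

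Total counts ran from 13465399 to 34952136 per library in the KO experiment and from 14832310 to 21708492 in the full-deletion experiment. Hmga1 itself averaged 341 ± 26.1 CPM (read counts scaled to a common library total, with TMM factors; SD, n = 3) in the WT of the full-deletion experiment and 11.8 ± 0.766 CPM after the deletion (log2 fold change -4.86, adjusted p = 1.06e-05 by edgeR). In the KO experiment Hmga1 averaged 320.2 ± 128 CPM in WT (n = 3), 156 ± 85.4 in Hmga1 KO and 153 ± 43.4 in the libraries labelled Hmga1 add-back (n = 2 each), so the Hmga1 read count does not show the added cDNA. The KO against WT missed the threshold for Hmga1 (log2 fold change -1.29, adjusted p = 0.0534). Hmga2 averaged 235 ± 19.2 CPM where it was added, against 17.5 ± 5.67 in WT. Pou5f1, a defining ESC gene, had group means from 642 to 955 CPM. Among the 8 pluripotency markers, which include Pou5f1, some were less even. Dppa5a ran from 92.0 to 485 CPM and Tfcp2l1 from 226 to 960 CPM, both lowest in the WT of the full-deletion experiment. Klf4 ran from 113 to 152 CPM. Zfp42 averaged 922 CPM after the full deletion and 1753 ± 947 CPM in its WT. In that comparison 5 of the 8 had a lower estimate and 3 a higher one. None passed an adjusted p under 0.05 by edgeR. Col1a1, the collagen gene of feeder fibroblasts, had group means from 0.295 to 0.957 CPM. Only 2 of 7 feeder markers passed the count filter in the KO experiment and 1 of 7 in the full-deletion experiment, where Col3a1, Dcn and Postn had 0 reads. One library stood apart from its group. It is WT replicate b of the full-deletion experiment, whose TMM factor was 0.752 against 0.986 to 1.12 in the other 5 libraries, and results of that experiment are given with and without it.

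HSP90 and HSP70 proteins are ATP-driven chaperones that pass client proteins between them with the help of co-chaperones, and HSP110 proteins exchange the nucleotide of HSP70. The chaperonin of mitochondria is a barrel of HSP60 closed by HSP10, and small heat shock proteins hold unfolded proteins without using ATP. Cells make part of this set all the time and part only after heat or other stress, when the transcription factor HSF1 binds heat shock elements, inverted repeats of the triplet GAA, in promoters. A separate response of the endoplasmic reticulum (ER) works through its own promoter element.

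The promoters below show which of these elements lie next to members described in the sections that follow. RefSeq promoter windows of 300 bases (250 before and 50 after the annotated start, build GRCm38.p6) were used for 6 members, and all 32851 windows were searched on both strands. The long heat shock element was written as GAANNTTCNNGAA or TTCNNGAANNTTC (3 units), the short one as GAANNTTC or TTCNNGAA (2 units, also found inside the long one), and the ER stress element as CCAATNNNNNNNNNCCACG or its complement on the other strand. The long form was in 0.603% of all windows, the short form in 15.1% and the ER stress element in 0.119%. Capitals mark the matches.

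The first window is that of Hspe1, which lies head to head with Hspd1, the other gene of the chaperonin pair. It overlaps most of the window of one annotated start of Hspd1 and only a few bases of the window of the other. The second is that of the HSP110 gene Hsph1, the third that of the ER chaperone Hspa5 and the fourth that of the small heat shock gene Hspb1.
Hspe1, chr1:55087898-55088197, plus strand: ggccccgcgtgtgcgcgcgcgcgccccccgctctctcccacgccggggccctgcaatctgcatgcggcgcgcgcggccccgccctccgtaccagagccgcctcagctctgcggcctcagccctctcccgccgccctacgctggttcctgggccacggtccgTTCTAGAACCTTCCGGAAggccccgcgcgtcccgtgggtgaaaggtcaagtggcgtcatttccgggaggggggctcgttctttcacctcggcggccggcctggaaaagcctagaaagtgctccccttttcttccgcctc
Hsph1, chr5:149636287-149636586, minus strand: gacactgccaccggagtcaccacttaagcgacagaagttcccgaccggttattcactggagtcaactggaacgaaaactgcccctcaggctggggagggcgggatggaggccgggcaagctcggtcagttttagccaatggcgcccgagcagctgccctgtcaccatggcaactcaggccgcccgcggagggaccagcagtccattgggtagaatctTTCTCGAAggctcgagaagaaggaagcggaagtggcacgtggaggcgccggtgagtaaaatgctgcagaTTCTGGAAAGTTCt
Hspa5, chr2:34771840-34772139, plus strand: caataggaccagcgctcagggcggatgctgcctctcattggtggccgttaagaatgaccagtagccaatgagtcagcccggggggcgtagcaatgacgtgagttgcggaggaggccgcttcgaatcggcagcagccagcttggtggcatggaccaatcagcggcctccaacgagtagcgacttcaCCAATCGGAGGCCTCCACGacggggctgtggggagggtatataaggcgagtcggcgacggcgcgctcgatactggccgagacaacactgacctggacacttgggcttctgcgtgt
Hspb1, chr5:135887669-135887968, plus strand: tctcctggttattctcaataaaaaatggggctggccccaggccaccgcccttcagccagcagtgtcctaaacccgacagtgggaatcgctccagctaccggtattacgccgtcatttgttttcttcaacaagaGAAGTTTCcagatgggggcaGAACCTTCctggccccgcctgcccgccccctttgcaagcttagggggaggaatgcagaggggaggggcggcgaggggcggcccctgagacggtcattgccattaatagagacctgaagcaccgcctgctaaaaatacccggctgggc

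The Hspe1 window holds 2 overlapping long heat shock elements, which begin 89 and 84 bases before its start site. The same bases lie 144 and 139 bases before one of the annotated starts of Hspd1, on the other strand. The window of the other annotated start of Hspd1 held neither form of the heat shock element and no ER stress element. The Hsph1 window, that of the first of its 2 annotated starts, holds 1 long element, which begins 37 bases after the start, and a separate short one 33 bases before it. Hspb1 has 2 short elements, 117 and 97 bases before its start, and no long one. The Hspa5 window holds 1 ER stress element, 65 bases before the start, and neither form of the heat shock element. The window of Hspa4 held none of these 3 motifs. A match says only that these letters are present.

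The genes lie at chr17:45704724-45710220 (minus strand), chr12:111928815-111940938 (minus strand), chr9:40609067-40613283 (plus strand), chr2:34627490-34632051 (plus strand) and chr11:53073316-53113959 (minus strand) for Hsp90ab1, Hsp90aa1, Hspa8, Hspa5 and Hspa4. Hspa9 lies at chr18:35097068-35114011 (minus strand). Hsph1 and Hspb1 are both on chromosome 5, at chr5:150416862-150438951 (minus strand) and chr5:136363789-136365433 (plus strand). Hspd1 lies at chr1:55134679-55145087 (minus strand) and Hspe1 at chr1:55144976-55148151 (plus strand), and their annotated ends overlap, but reads were counted by strand. These positions are from GENCODE vM1 on NCBIM37, the build the files call mm9.

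Several members have near-identical copies elsewhere in the genome, and a read with several equally good places was given to one of them at random. Of all 47-base windows (the trimmed read length) of a gene's annotated exons, 57.0% in Hsp90aa1, 57.0% in Hspb1, 52.8% in Hspd1 and 38.1% in Hspa8 had at least 1 other exact match on NCBIM37. The share was 18.2% in Hspe1, 8.39% in Hsp90ab1 and 6.84% in Hspa9. No window of Hspa5, Hspa4 or Hsph1 had another match. Reads of such windows can be split with the copies, which leaves the levels of the first 4 uncertain.

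The 10 genes took 1.97% to 3.11% of all counts of a library. Hsp90ab1, the constitutive cytosolic HSP90, had the most reads of any gene in all 9 libraries of the KO experiment, at 1.01% to 1.30% of counts. In the full-deletion experiment it ranked from 2 to 7, at 0.568% to 0.648% of counts, and Ncl, the nucleolar protein nucleolin, was first in all 6 libraries. The 2 tables come from separate sequencing runs with no shared library, so levels across them are set side by side without a test. The plot of all members by library shows these values.

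**Figure D1:**
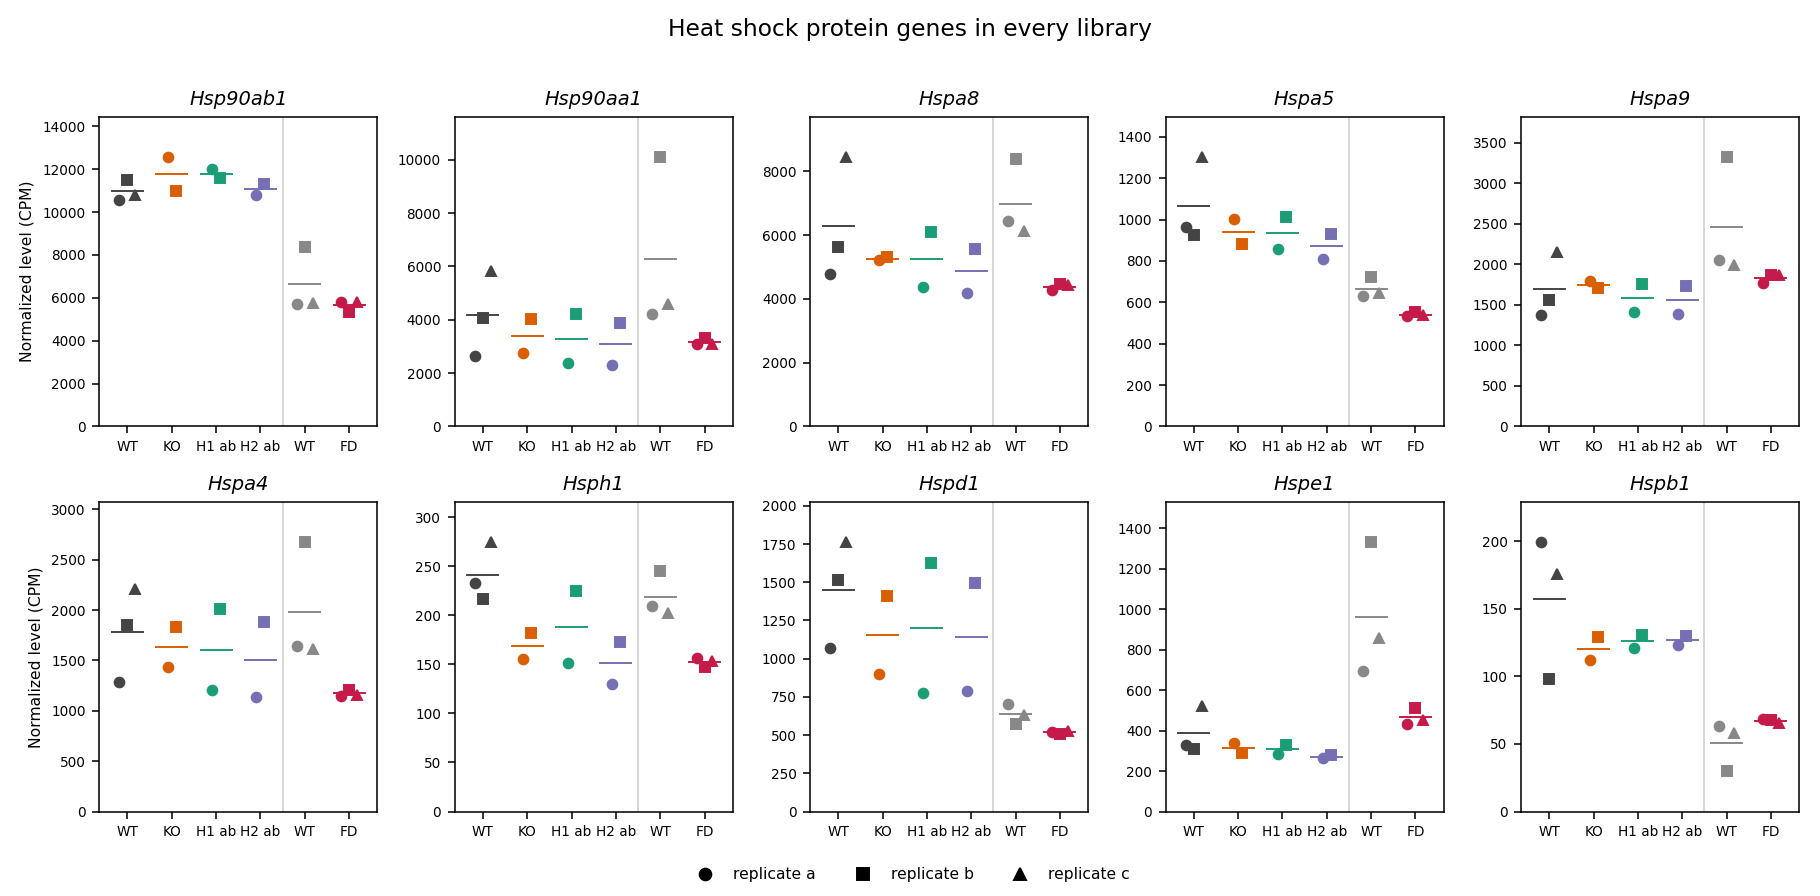
Normalized level (CPM, linear axes from 0) of each member in each library. Circles, squares and triangles are replicates a, b and c, lines are group means, and the grey line parts the KO experiment (WT, KO, H1 ab for Hmga1 add-back, H2 ab for Hmga2 add-back) from the full-deletion experiment (WT, FD). Under TMM scaling full-deletion libraries lie below all WT libraries of their experiment for 8 members and for 24.6% of all genes. With summed counts they do so for 5 members and 10.6% of all genes. WT replicate b of the full-deletion experiment is the highest there for 8 members.

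Per length of transcript, the order of the members differed among the 4 groups of the KO experiment only in Hspd1 and Hspa9, which overlapped and changed places in the mutant groups. Hsp90ab1 came first, at 4374 ± 189 CPM per kilobase in WT (SD, n = 3), followed by Hspa8, the constitutive HSP70 of the cytosol, at 1988 ± 605 and Hsp90aa1, the more stress-inducible HSP90, at 1424 ± 543. The ranges of Hspa8 and Hsp90aa1 overlapped in WT and in the Hmga1 add-back. Next in WT came Hspd1 (622 ± 149.6), Hspa9 (556 ± 134), Hspe1 (504 ± 154) and Hspa5 (407 ± 79.1), whose ranges overlapped from one to the next. Hspa4 (289.8 ± 75.7), Hspb1 (153 ± 51.2) and Hsph1 (36.1 ± 4.46) closed the list. Hspa4 overlapped Hspa5, and Hspb1 and Hsph1 each lay below the member before it with no overlap. In the full-deletion cells the per-length order began again with Hsp90ab1 (2251 ± 107), Hspa8 (1388 ± 31.0) and Hsp90aa1 (1075 ± 47.4), then Hspe1 (605 ± 53.6) and Hspa9 (603 ± 18.7), which overlapped. Hspd1, Hspa5, Hspa4, Hspb1 and Hsph1 followed, each clear of the next. In the WT of that experiment the first 5 ranges overlapped from one to the next.

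The heat-inducible HSP70 genes Hspa1a and Hspa1b are near-identical to each other, so their reads can be split between them, and both were low throughout. Hspa1a had group means from 3.26 to 5.50 CPM and Hspa1b from 4.04 to 7.78 CPM. Hsf1, the heat shock factor gene, had group means from 13.3 to 19.3 CPM.

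The full-deletion comparison asked what changes when the Hmga1 coding sequence is gone. Of the 10 members, 9 had a lower estimate after the deletion and Hspb1 a higher one. For 8 of them (Hsp90aa1, Hspa8, Hspa5, Hspa9, Hspa4, Hsph1, Hspd1 and Hspe1) every full-deletion library lay below every WT library, which was so for 24.6% of all 13098 genes tested. Scaled by summed counts instead of TMM, an alternative chosen after seeing the data, 5 of the 8 remained below (Hsp90aa1, Hspa8, Hspa4, Hsph1 and Hspe1), as did 10.6% of all genes, and Hspa5, Hspa9 and Hspd1 overlapped WT. At an adjusted p under 0.05 with no minimum fold (edgeR's quasi-likelihood test, Benjamini-Hochberg adjustment over all genes), 2 members fell, Hspe1 and Hsph1. Among all genes 8.25% passed that threshold and 3.77% passed it as lower. No member passed the stricter rule of an adjusted p under 0.01 with a fold of at least 2, which 0.0687% of all genes did. At an unadjusted p under 0.05 there were 7 members and 28 of 64 other chaperone genes. The share of all genes at that unadjusted level was not counted. By the stricter rule limma-trend called 0 members and DESeq2 1, and the share of all genes was not counted for either. At an adjusted p under 0.05 DESeq2 passed 24.7% of all genes. The members' median log2 fold change was -0.47, and that of all genes tested was 0.04. With summed counts the medians moved to -0.16 and 0.32, Hsp90ab1 alone of the 10 changed direction, and Hsph1 no longer passed (adjusted p = 0.136 by edgeR).

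Hspe1, the HSP10 lid of the mitochondrial chaperonin, had the larger change of the pair. The full-deletion libraries had 432, 511 and 452 CPM against 694, 1329.5 and 858 CPM in their WT. The mean was 48.4% of WT, log2 fold change -1.05 ± 0.24 SE, adjusted p = 0.0433, with a 95% interval of -1.61 to -0.49. WT replicate b was the highest library and the groups did not overlap. Hspd1, the HSP60 barrel, has an annotated start whose window mostly overlaps that of Hspe1. It had 522, 510.0 and 525 CPM after the deletion and 707, 574 and 632 CPM in WT. Here WT replicate b was the lowest WT library, and the deletion mean was 81.4% of WT (log2 fold change -0.30 ± 0.12 SE, adjusted p = 0.123).

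Hsph1, an HSP110 protein, was the other member that fell. It had 157, 147 and 153 CPM in the full-deletion libraries and 209.7, 245 and 202 CPM in WT. The deletion mean was 69.6% of WT (log2 fold change -0.52 ± 0.11 SE, adjusted p = 0.0388), and the groups did not overlap. Hspa4, the second HSP110-type gene, had 1149, 1206 and 1160.1 CPM against 1647, 2671 and 1614 CPM. Its mean was 59.3% of WT and it missed the threshold (log2 fold change -0.75 ± 0.22 SE, adjusted p = 0.0632).

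Among the HSP70 genes, Hspa8 had 4276, 4456 and 4433 CPM after the deletion and 6451, 8375 and 6119.9 CPM in WT, a mean of 62.9% of WT (log2 fold change -0.67 ± 0.18 SE, adjusted p = 0.0580). Hspa5, the ER chaperone BiP, had 532, 552 and 536 CPM against 629, 724 and 646 CPM, or 81.1% of WT (log2 fold change -0.30 ± 0.11 SE, adjusted p = 0.104). Hspa9, the HSP70 of mitochondria, had 1769, 1865 and 1871 CPM against 2049, 3319 and 1992 CPM, or 74.8% of WT (log2 fold change -0.42 ± 0.22 SE, adjusted p = 0.199). All 3 were lower in every full-deletion library than in any WT library under TMM scaling, and none passed the threshold with all libraries in. With summed counts Hspa5 and Hspa9 overlapped WT, and their log2 fold changes were -0.00817 and -0.0904.

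Of the cytosolic HSP90 genes neither passed. Hsp90aa1 had 3092, 3324 and 3074 CPM after the deletion and 4200.3, 10093 and 4586 CPM in WT. Its mean was 50.3% of WT (log2 fold change -0.99 ± 0.34 SE, adjusted p = 0.0870), with WT replicate b at more than the other WT libraries together. Hsp90ab1 had 5811, 5334 and 5782 CPM against 5733, 8359 and 5775 CPM, and its groups overlapped (log2 fold change -0.23 ± 0.20 SE, adjusted p = 0.422, 95% interval -0.71 to 0.24). The ratio of Hsp90ab1 to Hsp90aa1 per length was 1.88 to 2.21 in the full-deletion libraries and 0.972 to 1.60 in WT. The groups did not overlap, and the exact permutation test gave p = 0.1 (two-sided), the smallest that 3 against 3 allow. The ratio of Hspd1 to Hspe1 per length was 0.329 to 0.398 after the deletion and 0.142 to 0.335 in WT, which overlapped (exact permutation test, two-sided p = 0.2).

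Hspb1, a small heat shock protein, had 68.6, 67.5 and 65.3 CPM after the deletion and 63.3, 29.7 and 58.3 CPM in WT. The full-deletion libraries were all higher, but the test missed the threshold (log2 fold change 0.41 ± 0.25 SE, adjusted p = 0.264). WT replicate b, the lowest, had 0.489 times the mean of the other WT libraries.

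WT replicate b bore on most of these values. Set against the mean of WT replicates a and c, it had 2.30 times as much Hsp90aa1, 1.71 times as much Hspe1, 1.64 times as much Hspa9 and as much Hspa4, 1.45 times as much Hsp90ab1 and 1.33 times as much Hspa8. In all, 4 of 10 members had a ratio above 1.5, as had 16.0% of all genes, and the median ratio over all genes was 0.982. The chi-square of their counts over genes, divided by its degrees of freedom, was 137 between WT replicates a and b, 131 between b and c and 5.76 between a and c.

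Without that library, 8 members passed as lower, the same 8 that had not overlapped. Among all 13163 genes tested, 42.5% then passed at an adjusted p under 0.05 and 22.0% passed as lower, in edgeR's test on 5 libraries. The estimates of Hspe1 (-0.74 ± 0.08 SE, 59.9% of WT), Hspa8 (-0.52 ± 0.05), Hspa4 (-0.48 ± 0.05), Hsp90aa1 (-0.47 ± 0.05) and Hsph1 (-0.44 ± 0.05) were the lowest on the log2 scale, with adjusted p from 1.16e-07 to 4.20e-06. Hspd1 (-0.37 ± 0.05, adjusted p = 2.31e-05), Hspa5 (-0.24 ± 0.05, adjusted p = 0.000638) and Hspa9 (-0.14 ± 0.05, adjusted p = 0.0244) followed. Hsp90ab1 came to -0.03 ± 0.05 (adjusted p = 0.680), with a 95% interval of -0.13 to 0.08, and Hspb1 to 0.14 ± 0.06 (adjusted p = 0.0842). Leaving out WT replicate c left 0 members under the threshold, where 0.0305% of all genes passed. Leaving out any 1 full-deletion library also left 0 members, and the share of all genes was not counted there. Without WT replicate a Hsph1 and Hspe1 passed again, where 9.4% of all genes passed. DESeq2's Wald test passed 7 members as lower with all libraries in, and 24.7% of all genes.

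**Figure D2:**
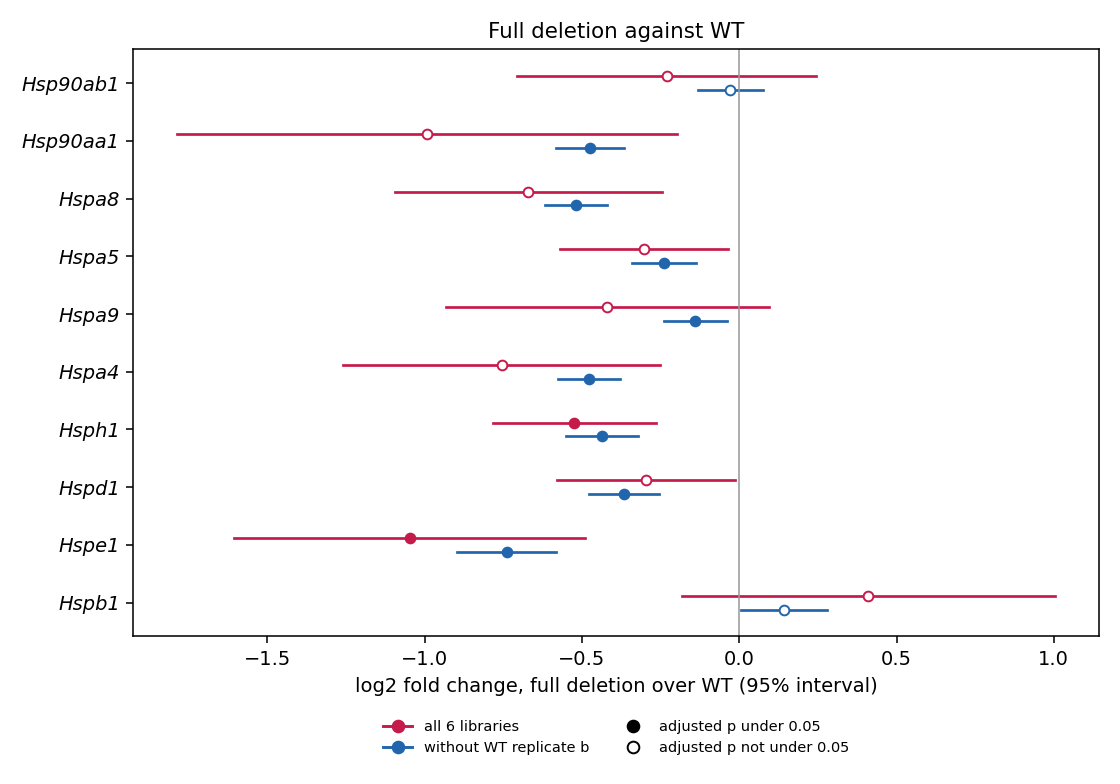
Log2 fold change of each member, full deletion over WT, with its 95% interval, from all 6 libraries (red) and without WT replicate b (blue). Filled points had an adjusted p under 0.05. Without that library the intervals were narrower, 8 members passed as lower, as did 22.0% of all genes, and Hsp90ab1 lay at -0.03.

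Of 64 other chaperone and heat shock factor genes tested, 1 rose and 4 fell after the deletion at an adjusted p under 0.05, a share near that of all genes (8.25% passed, 3.77% as lower). With summed counts none of the 4 passed. The gene that rose was Hspb8, a small heat shock protein, from 21.9, 18.01 and 20.4 CPM to 45.5, 40.9 and 43.5 CPM (log2 fold change 1.10 ± 0.11 SE, adjusted p = 0.0132). The 4 that fell were Ppid, a co-chaperone of HSP90 (log2 fold change -0.53 ± 0.11 SE, adjusted p = 0.0366), P4hb, a protein disulfide isomerase of the ER (log2 fold change -0.55 ± 0.12 SE, adjusted p = 0.0430), Cct6a, a subunit of the cytosolic chaperonin (log2 fold change -0.60 ± 0.14 SE, adjusted p = 0.0433), and Dnaja2, a J-domain partner of HSP70 (log2 fold change -0.60 ± 0.14 SE, adjusted p = 0.0444). Their median log2 fold change was -0.15. By list, the 11 HSP90 co-chaperones had a median of -0.34, the 8 cytosolic chaperonin subunits -0.24 and the 14 ER chaperones -0.22. The 8 mitochondrial chaperones had -0.18, the 13 HSP70 co-chaperones -0.15 and the 7 inducible chaperones 0.06. The 3 tested genes of the heat shock factor list (the factors Hsf1 and Hsf2, and Hsbp1, which is not itself a factor) had 0.44. The 8 pluripotency markers had a median of -0.20. Without WT replicate b, 4 of the 64 rose and 28 fell, where 42.5% of all genes passed and 22.0% passed as lower. The 28 were 8 HSP90 co-chaperones, 7 HSP70 co-chaperones, 6 ER chaperones, 5 chaperonin subunits and 2 mitochondrial chaperones. Of the 8 pluripotency markers, 2 passed as higher and 3 as lower in that fit, beside the same 42.5% of all genes, and their part in the result was not tested.

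The KO experiment asked the same of the frameshift KO and whether an added Hmga1 or Hmga2 undoes its effect. No member passed an adjusted p under 0.05 in any of the 5 comparisons by edgeR's test in the fit that holds the batch. Hmga1 KO against WT had 1 member at an unadjusted p under 0.05, the Hmga2 add-back against WT had 1, and the other 3 had 0. The share of all genes at that unadjusted level was not counted. By limma-trend the count at an adjusted p under 0.05 was 0 in all 5. By DESeq2's Wald test it was 0 in 4 and 1 (Hsph1) for added Hmga2 against WT, where 2.32% of all genes passed. Few genes passed at all by edgeR. Against WT, the adjusted p was under 0.05 for 0.0647% of 13912 genes in Hmga1 KO, 0.0431% with added Hmga1 and 0.165% with added Hmga2. Against Hmga1 KO it was under 0.05 for 0.00% of genes with added Hmga1 and 0.0144% with added Hmga2. No member passed the stricter rule either, which 0.0216%, 0.0144% and 0.0647% of genes did in the 3 comparisons with WT and 0.00% and 0.00719% in the 2 with Hmga1 KO. The 3 comparisons with WT share their WT libraries, and the 2 with Hmga1 KO share theirs. WT replicate c is alone in batch c, so with the batch term the comparisons with WT rest on WT replicates a and b.

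Hsph1 came closest. In the KO experiment Hsph1 stood at 232, 216 and 274 CPM in WT replicates a, b and c, at 155 and 182 in Hmga1 KO replicates a and b, at 151 and 225 with added Hmga1 and at 129.9 and 173 with added Hmga2. Both KO libraries and both Hmga2 add-back libraries lay below all WT libraries, and replicate b of the Hmga1 add-back lay among them. The share of all genes with no overlap of this kind was not counted. The estimate of Hsph1 was -0.43 ± 0.16 SE, adjusted p = 0.346 by edgeR, on the log2 scale in Hmga1 KO. It was -0.29 ± 0.16 SE, adjusted p = 0.457 with added Hmga1, and -0.60 ± 0.16 SE, adjusted p = 0.154 with added Hmga2. Within batch a the Hmga1 KO level was 66.8% of WT and within batch b 84.1%, and the Hmga2 add-back stood at 55.9% and 79.7%.

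The next smallest p in Hmga1 KO was that of Hspa9, at 1791 and 1705 CPM against 1369, 1554 and 2147 CPM in WT (log2 fold change 0.27 ± 0.13 SE, adjusted p = 0.442), and KO and WT overlapped. In the Hmga1 add-back it was that of Hspd1 (log2 fold change -0.19 ± 0.15 SE, adjusted p = 0.602), and in the Hmga2 add-back that of Hspe1 (log2 fold change -0.23 ± 0.13 SE, adjusted p = 0.379). Against Hmga1 KO, the smallest p in the Hmga1 add-back were those of Hspa9 (log2 fold change -0.16 ± 0.13 SE, adjusted p = 0.9999) and Hsph1 (log2 fold change 0.14 ± 0.16 SE, adjusted p = 0.9999). In the Hmga2 add-back they were those of Hspe1 (log2 fold change -0.21 ± 0.13 SE, adjusted p = 0.877) and Hspa9 (log2 fold change -0.18 ± 0.13 SE, adjusted p = 0.877).

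In Hmga1 KO, 7 of 10 members lay above WT in one batch and below it in the other, Hsp90ab1 and Hspb1 among them. The share of all genes for which this was so was not counted. In the KO experiment Hsp90ab1 stood at 10583, 11494 and 10818 CPM in WT replicates a, b and c, at 12553 and 10982 in Hmga1 KO replicates a and b, at 11999 and 11579.5 with added Hmga1 and at 10814 and 11296 with added Hmga2. In batch a the KO level stood at 119% of WT and in batch b at 95.5%, and the 95% interval of its log2 fold change was -0.22 to 0.40. Hspb1 had 199, 98.1 and 175 CPM in the 3 WT libraries of the KO experiment, 112 and 129 CPM in Hmga1 KO, 121 and 131 CPM with added Hmga1 and 123 and 130.0 CPM with added Hmga2. WT replicate b was the lowest of the 9, and within batch a the KO stood at 56.2% of WT, within batch b at 132%.

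The remaining members overlapped between WT and the mutant groups in most comparisons. Hspa8 had 4779.7, 5638 and 8440.5 CPM in the 3 WT libraries of the KO experiment, 5208 and 5308 CPM in Hmga1 KO, 4384 and 6086 CPM with added Hmga1 and 4199 and 5574 CPM with added Hmga2. Hspa4 had 1283, 1852 and 2204 CPM in the 3 WT libraries of the KO experiment, 1431 and 1828 CPM in Hmga1 KO, 1207 and 2009 CPM with added Hmga1 and 1133 and 1880.0 CPM with added Hmga2. WT replicate c was the highest of the 9 libraries for both. Hspe1 had 331, 307 and 523 CPM in the 3 WT libraries of the KO experiment, 341 and 287 CPM in Hmga1 KO, 283 and 331 CPM with added Hmga1 and 262 and 281 CPM with added Hmga2. Hspa5 had 965, 924 and 1301 CPM in the 3 WT libraries of the KO experiment, 1003 and 879.5 CPM in Hmga1 KO, 856 and 1012 CPM with added Hmga1 and 809 and 932 CPM with added Hmga2. For these as well WT replicate c was the highest, and this library alone makes up batch c.

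WT replicate b of the KO experiment, the only WT library of batch b, bore on these comparisons as well. Without it, Hspb1 (-0.79 ± 0.13 SE, adjusted p = 0.0169) and Hsph1 (-0.67 ± 0.14, adjusted p = 0.0408) passed as lower in Hmga1 KO on the log2 scale by edgeR, and 5.25% of all genes passed. In the Hmga1 add-back Hspb1 alone passed (-0.73 ± 0.13, adjusted p = 0.0231), with 5.75% of all genes. In the Hmga2 add-back Hsph1 (-0.84 ± 0.14, adjusted p = 0.0181) and Hspb1 (-0.72 ± 0.12, adjusted p = 0.0185) passed, with 9.36% of all genes. These fits rest on WT replicate a, the only WT library left that shares a batch with mutant libraries. Without WT replicate a, they rest on WT replicate b in the same way, and no member passed against WT. The batch term takes up WT replicate c, the only library of batch c. Leaving it out therefore could not test these results, and no member passed there either.

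**Figure D3:**
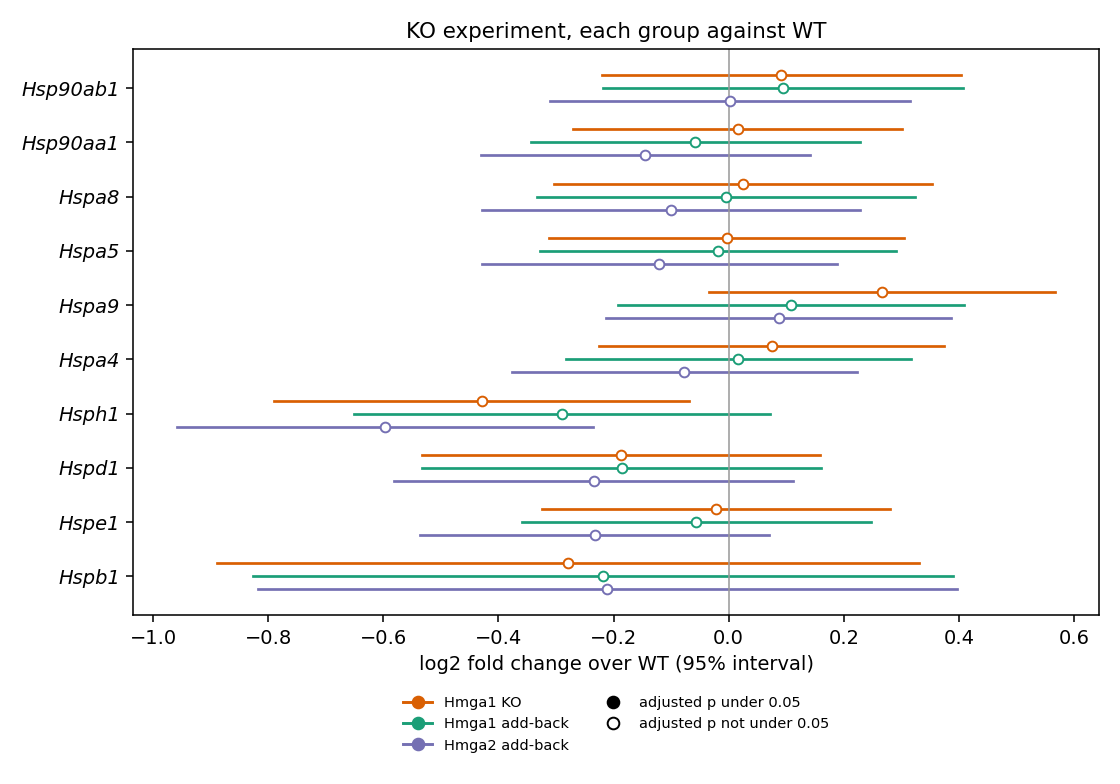
Log2 fold change of each member over WT for Hmga1 KO (orange), added Hmga1 (green) and added Hmga2 (purple), with 95% intervals from the fit of all 9 libraries. All points are open, since none had an adjusted p under 0.05, and Hsph1 in the Hmga2 add-back lies furthest from 0 at -0.60.

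None of the 64 other chaperone genes passed in these comparisons by edgeR, DESeq2 or limma-trend. By edgeR 0 to 9 of them had an unadjusted p under 0.05, a level at which the share of all genes was not counted. The smallest p in Hmga1 KO were those of Sdf2l1, an ER stress-responsive gene (log2 fold change 0.44 ± 0.13 SE, adjusted p = 0.250), and Bag2, a nucleotide exchange factor of HSP70 (log2 fold change -0.75 ± 0.23 SE, adjusted p = 0.273). In the Hmga1 add-back they were those of Hsf2, a heat shock factor (log2 fold change -0.37 ± 0.10 SE, adjusted p = 0.221), and Dnaja4 (log2 fold change 1.06 ± 0.42 SE, adjusted p = 0.342), and in the Hmga2 add-back those of Ahsa1, which activates the HSP90 ATPase (log2 fold change -0.46 ± 0.14 SE, adjusted p = 0.185), and Dnaja1 (log2 fold change -0.52 ± 0.16 SE, adjusted p = 0.195). Against Hmga1 KO they were those of Dnajb6 (-0.31 on the log2 scale, adjusted p = 0.9999) and Sugt1 (-0.25, adjusted p = 0.9999) in the Hmga1 add-back, and of Sdf2l1 (-0.34, adjusted p = 0.877) and Trap1, the HSP90 of mitochondria (-0.30, adjusted p = 0.877), in the Hmga2 add-back.

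Members did pass between batches of the KO experiment. At an adjusted p under 0.05 (edgeR, the batch term of the same fit), 3 of 10 members were higher in batch b than in batch a and none lower, where 35.6% of all genes passed and 18.6% passed as higher in b. The 3 were Hsp90aa1 (log2 fold change 0.69 ± 0.09 SE, adjusted p = 0.00182), Hspa4 (log2 fold change 0.59 ± 0.09 SE, adjusted p = 0.00332) and Hspd1 (log2 fold change 0.79 ± 0.11 SE, adjusted p = 0.00216). The level of Hsp90aa1 in b over that in a was 1.53, 1.46, 1.79 and 1.69 in WT, in Hmga1 KO and with added Hmga1 or Hmga2, in that order. That of Hspa4 was 1.44, 1.28, 1.66 and 1.66 and that of Hspd1 1.41, 1.57, 2.11 and 1.89. Together with Hspa8 (1.18, 1.02, 1.39 and 1.33), 4 of 10 members were higher in b in all 4 groups, as were 25.7% of all genes. Batch b was also the shallower one, with 13465399 to 14585417 counts against 30742898 to 34952136 in a, so batch and depth cannot be told apart.

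Within the pair of cytosolic HSP90 genes and within the chaperonin pair, one gene moved with the batch and the other did not pass. In the KO experiment Hsp90aa1 stood at 2658, 4069.7 and 5843 CPM in WT replicates a, b and c, at 2748 and 4016 in Hmga1 KO replicates a and b, at 2361 and 4221 with added Hmga1 and at 2287 and 3869 with added Hmga2. Hspd1 had 1072, 1517 and 1760.4 CPM in the 3 WT libraries of the KO experiment, 898 and 1408 CPM in Hmga1 KO, 772 and 1627 CPM with added Hmga1 and 791 and 1498 CPM with added Hmga2. Hsp90ab1 had a b over a ratio of 1.09, 0.875, 0.965 and 1.04 (log2 fold change -0.02 ± 0.10 SE, adjusted p = 0.913). Hspe1 had 0.928, 0.842, 1.17 and 1.07 (log2 fold change -0.01 ± 0.09 SE, adjusted p = 0.954). The per-length ratio of Hsp90ab1 to Hsp90aa1 was 4.67 to 5.96 in batch a and 3.21 to 3.43 in batch b, lower in b in 4 of 4 groups, and 2.17 in WT replicate c. The ratio of Hspd1 to Hspe1 was 0.867 to 1.07 in a and 1.61 to 1.76 in b, higher in b in 4 of 4 groups, and 1.11 in WT replicate c. An exact sign-flip permutation test over the 4 groups gave p = 0.125 (two-sided) for each ratio, the smallest that 4 pairs allow. All 4 pairs compare the same batches and are not independent repeats, so this test cannot decide whether the ratios differ by batch.

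**Figure D4:**
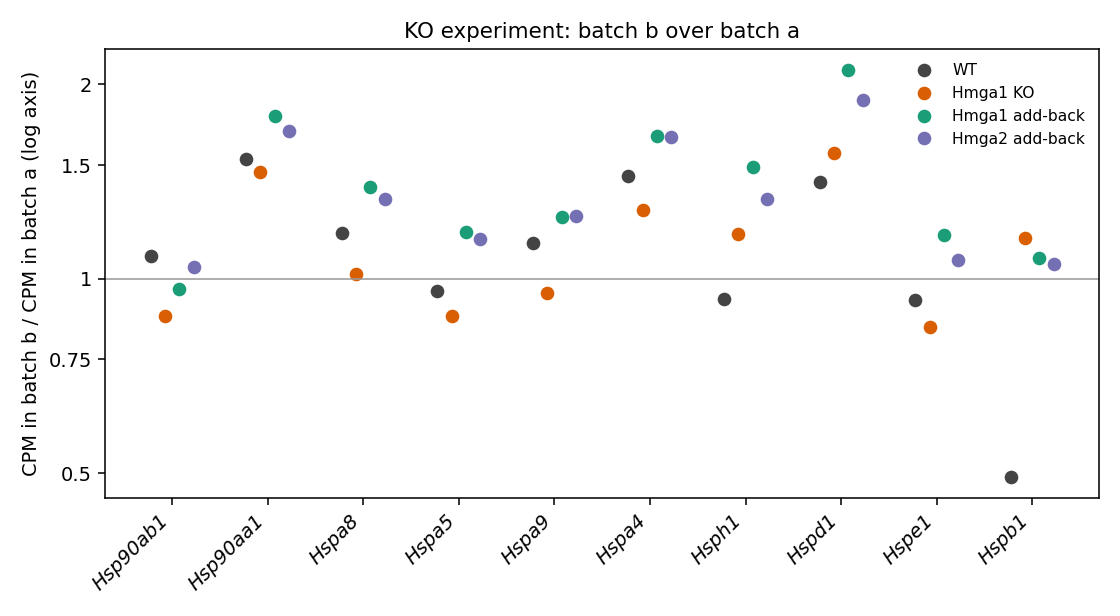
CPM in batch b over CPM in batch a (log axis) for each member in the 4 groups of the KO experiment. Hsp90aa1, Hspa8, Hspa4 and Hspd1 lie above 1 in all 4 groups, Hsp90ab1 and Hspe1 lie on both sides of 1, and Hspb1 in WT lies lowest at 0.49.

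**Figure D5:**
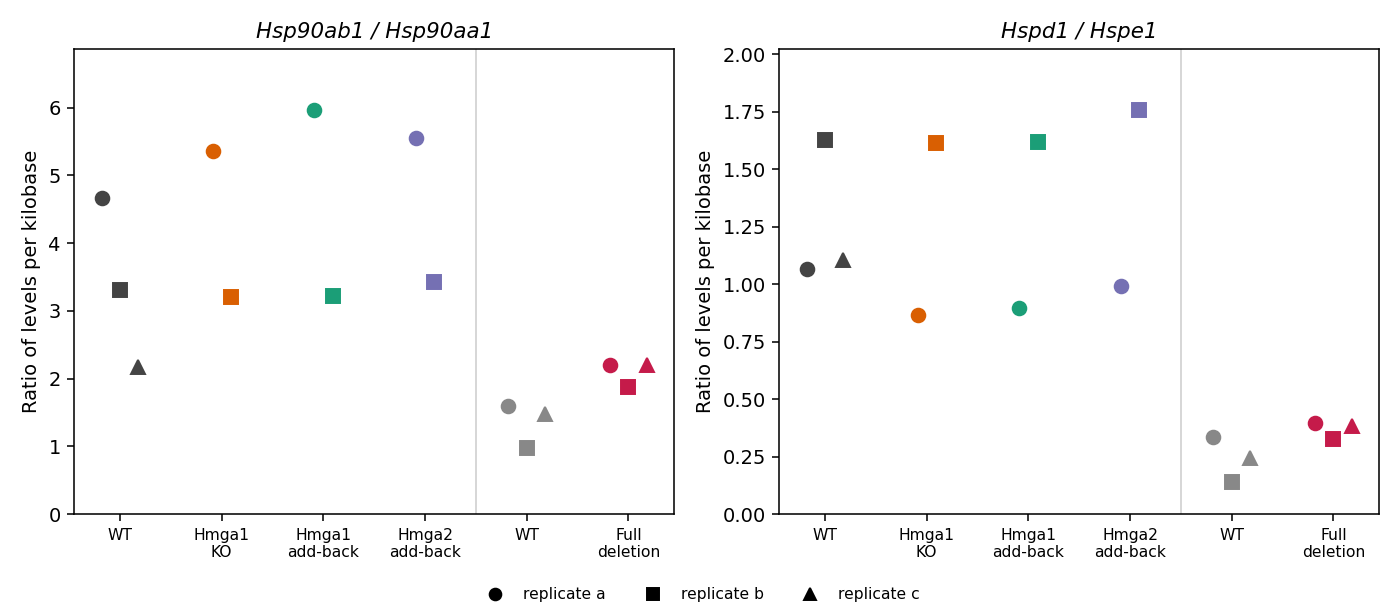
Ratio of levels per kilobase within each library for Hsp90ab1 over Hsp90aa1 (left) and Hspd1 over Hspe1 (right), with circles, squares and triangles for replicates a, b and c. The KO experiment (left of the grey line) splits by replicate letter, and Hspd1 over Hspe1 lies lower in the full-deletion experiment, at 0.142 to 0.398.

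Whether the frameshift and the full deletion differ in effect was tested in 1 fit of both experiments. By edgeR, no member passed an adjusted p under 0.05, and by DESeq2 and limma-trend the count was 0 as well. Among all 13050 genes 0.375% passed by edgeR, and 0.0843% passed the stricter rule, which no member did. At an unadjusted p under 0.05 there were 5 of 10 members by edgeR, 5 by DESeq2 and 3 by limma-trend. The share of all genes at that unadjusted level was not counted. The smallest p were those of Hspe1 (1.04 ± 0.33 SE on the log2 scale, KO effect minus full-deletion effect, adjusted p = 0.197) and Hspa4 (0.84 ± 0.30, adjusted p = 0.226). Without WT replicate b of the full-deletion experiment, the effects of Hspa4 (0.59 ± 0.13, adjusted p = 0.0260), Hspe1 (0.76 ± 0.17, adjusted p = 0.0306), Hspa8 (0.58 ± 0.14, adjusted p = 0.0338) and Hsp90aa1 (0.53 ± 0.13, adjusted p = 0.0340) differed, all more negative after the full deletion. Of all genes 5.28% then passed. Among the other chaperone genes the smallest p with all libraries in were those of Hspb8 (-1.01 ± 0.25, adjusted p = 0.123) and Hsf2 (-0.57 ± 0.14, adjusted p = 0.128). At an adjusted p under 0.05, 0 of the 64 passed by edgeR and limma-trend. By DESeq2 2 passed, where 2.52% of all genes passed. The 2 deletions differ in clone, experiment and sequencing run, which cannot be told apart from the kind of deletion.

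Over the 15 libraries, with log2 CPM centred within each experiment, the members were set side by side by Pearson's r. Between the 8 members other than Hsp90ab1 and Hspb1 it ran from 0.36 to 0.98, and from 0.50 to 0.97 without WT replicate b of the full-deletion experiment. Hsp90aa1 and Hspa4 were closest to each other in the 14 libraries (r = 0.97). With those 8 members Hsp90ab1 had r between -0.10 and 0.71 over 15 libraries, and between -0.24 and 0.10 without that library. Its r with Hspb1 was -0.85 over 15 libraries and -0.61 over 14. The 3 genes most like Hsp90ab1 among 13050 were Synrg (r = 0.95), Ctr9 (r = 0.94) and Incenp (r = 0.94), at 0.68, 0.71 and 0.62 without that library. These values describe libraries that share batches and depth, and the most alike genes were picked from many.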

How the data were processed

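Libraries were made from total RNA depleted of ribosomal RNA with a strand-specific protocol and sequenced as 50-base single reads. The authors trimmed the first 3 bases, mapped reads to mm9 with QuasR and Bowtie, gave each multi-mapping read 1 random place among its best, and deposited raw same-strand read counts per gene for each library. All else was computed from these counts. Genes averaging 10 or more reads per library entered edgeR 4.0.16 in R 4.3.3 (quasi-likelihood, TMM scaling, Benjamini-Hochberg adjustment over all genes tested). The 9 libraries of the KO experiment were fitted with batch as a term, the 6 of the full-deletion experiment without one, and all 15 together for the difference of effects. The authors used limma-trend, which was run here as an alternative (limma 3.58.1), as was DESeq2 1.42.0. A member was called at an adjusted p under 0.01 with a fold of at least 2, and counts at an adjusted p under 0.05 were added after seeing the data.

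Levels are CPM after TMM scaling. Precision follows from total counts of 13465399 to 34952136 per library. In the KO experiment the letters mark shared library preparation, and differences between letters a and b correlated at 0.32 to 0.76 between pairs of groups. The members and gene lists were chosen with earlier results of these data known. Members at an adjusted p under 0.05, or else the 2 with the smallest p, were to be named with their statistics, and other chaperones likewise (up to 6, or 2). Beyond that rule the full-deletion estimates of all members are given. Scripts were tested on simulated data. Alternatives changed the scaling, the count filter, the test, the batch term and single libraries.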

Additional observations from a re-analysis of the deposited data

How the results depend on the processing

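Libraries were left out 1 at a time, and the scaling, count filter, test, threshold and batch term were changed. After the full deletion 0 members met an adjusted p under 0.01 with a fold of at least 2, while 1 met an adjusted p under 0.05 with that fold, 2 met it with no minimum fold, and 1 met the stricter rule by DESeq2. The 2 members at an adjusted p under 0.05 became 1 with summed counts, 4 with no filter on low counts, 7 by DESeq2 and 1 with the replicate block, although the letters of that experiment do not pair its libraries (correlations of 0.064, 0.070 and -0.055). By DESeq2 24.7% of all genes passed at an adjusted p under 0.05. For the other settings just named, the stricter rule by DESeq2 among them, the share of all genes was not counted. Leaving out 1 library gave 0 to 8 members after the full deletion. There were 8 without WT replicate b (42.5% of all genes), and 0 without WT replicate c (0.0305%) or any full-deletion library (share not counted). It gave 0 to 2 in Hmga1 KO against WT, 0 to 1 with added Hmga1, 0 to 2 with added Hmga2 and 0 to 4 for the difference of effects, the highest each time without WT replicate b of the KO experiment, or of the full-deletion experiment for the difference. DESeq2 passed 1 member with added Hmga2 against WT. Dropping the batch term changed no count of members. On the log2 scale Hsp90ab1 after the full deletion turned to 0.0865 with summed counts. With single libraries left out, Hspd1 with added Hmga1 against WT ran from -0.38 to 0.00758, and against Hmga1 KO Hspa9 ran from -0.33 to 0.00541 and Hsph1 from -0.0656 to 0.32, none past the threshold. Of the other log2 values, 497 kept direction and side of the threshold, 23 newly passed it and 40 no longer did. The 3 batch differences passed under every alternative run. The cause of these changes was not tested.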

Other observations

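The other chaperones also differed between batches of the KO experiment. Of 64 tested, 19 were higher in batch b and 6 lower at an adjusted p under 0.05 by edgeR, where 35.6% of all genes passed and 18.6% passed as higher. The 8 subunits of the cytosolic chaperonin all had a higher estimate in b and 4 of them passed, while 2 of the 7 inducible chaperones passed as lower. The 6 with the smallest p were all higher in b. They were Ptges3, the HSP90 co-chaperone p23 (log2 fold change 0.85 ± 0.10 SE, adjusted p = 0.00161), Dnajb6, a J-domain protein (0.75 ± 0.10, adjusted p = 0.00205), Ppid (0.63 ± 0.09, adjusted p = 0.00215), Cct8, a chaperonin subunit (0.68 ± 0.09, adjusted p = 0.00225), Chordc1, which binds HSP90 (1.05 ± 0.15, adjusted p = 0.00263), and Dnaja2 (0.58 ± 0.09, adjusted p = 0.00279). Batch b was also the shallower batch, and the part of depth was not tested.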
